A study of Brassica napus with 11 samples.

Results

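The cortex and the vasculature of the funiculus were compared across all transcripts of *Brassica napus* that reached a mean of at least 1 FPKM (fragments scaled for transcript length and for library size) in either tissue. The members are 5 of the 11 libraries of the series, cortex 1 and 2 and vasculature 1, 2 and 3, and 42966 of the 97902 transcripts in the table passed the minimum. The funiculus is the stalk that joins the ovule, and later the seed, to the ovary wall. It was taken from a *B. napus* line of cultivar Topaz 7 days after pollination, with the embryo at the globular stage, and cut into tissues by laser microdissection. The libraries hold amplified RNA sequenced as 50 bp single-end reads, and every plant was untreated, so the groups differ in the tissue cut from the section. Each biological replicate pooled pieces from several plants, and a further cortex sample was not sequenced, so the cortex has 2 libraries.

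The cortex is the ground tissue between the epidermis and the vascular strand, made of parenchyma cells that elongate and often hold chloroplasts. The strand holds xylem, whose vessels carry water and are strengthened by lignified secondary walls, and phloem, whose sieve elements load and move sucrose, together with the dividing and parenchyma cells around them. A transcript that is higher in one tissue can reflect more cells of a type in the cut piece or more of that RNA in each cell, and these cannot be told apart in bulk libraries.

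The low FPKM values step by whole fragments, and the size of the step gave depths of 0.448 and 0.882 for cortex 1 and 2 and 0.671 and 0.573 for vasculature 1 and 2, relative to 1 for vasculature 3. The number of fragments behind 1 FPKM differs with transcript length. Between 34701 and 38118 transcripts reached 1 FPKM in each library. Pearson's r of log2(FPKM + 1) over the tested transcripts was 0.797 between the cortex libraries, 0.801 to 0.897 between vasculature libraries and 0.566 to 0.662 across tissues. Vasculature 1 and 3 were the closest pair, at 0.897, and these values run across transcripts, which are not independent replicates. In the quality table of the study each vasculature library had a lower RNA integrity number than either cortex library, so RNA quality and tissue cannot be told apart. An exact 0 can be a failed estimate, since 30 of 1344 transcripts with a cortex mean of at least 50 FPKM and 52 of 1325 in the vasculature were listed at 0 in a library of that tissue, and a 0 is therefore given as listed.

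Of the 42966 transcripts, 31798 (74.0%) reached 1 FPKM in both tissues, 4739 in the cortex only and 6429 in the vasculature only. In the limma test on log2(FPKM + 1), 1683 transcripts (3.92%) were higher in the cortex and 2296 (5.34%) were higher in the vasculature at a Benjamini-Hochberg adjusted p under 0.05, together 9.26%. The vasculature held 57.7% of the 3979 calls, but the larger side turned when either cortex library was left out, with 1744 cortex-higher and 670 vasculature-higher transcripts without cortex 1, and 1273 and 706 without cortex 2. With only transcripts above 0 in all 5 libraries, the sides were near even, at 1532 and 1622. The median difference of the cortex-higher transcripts was 2.32 on the log2 scale, with quartiles of 1.88 and 2.99, and that of the vasculature-higher transcripts was 2.43, with quartiles of 1.91 and 3.18. The median over all transcripts tested, cortex minus vasculature, was -0.07. Many called transcripts were near absence in the other tissue. The cortex mean was under 1 FPKM for 1380 of the 2296, and listed at 0 in both cortex libraries for 414, while the vasculature mean was under 1 FPKM for 773 of the 1683 and listed at 0 in all 3 vasculature libraries for 177. These counts are not compared, since 0 in 2 cortex libraries, one of them the shallowest, is reached more easily than 0 in 3 vasculature libraries.

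Without regard to the test, both cortex libraries lay above all 3 vasculature libraries for 8096 transcripts (18.8%), and all 3 vasculature libraries lay above both cortex libraries for 9479 (22.1%). The number of calls depended on single libraries. With vasculature 3 left out, 0 transcripts were called by limma, with 8084 at an unadjusted p under 0.05. The number was 828 without vasculature 1, 1850 without vasculature 2, 2414 without cortex 1 and 1979 without cortex 2. With the 3 epidermis libraries added to the fit, so that 8 libraries shared the estimate of spread, 4720 transcripts were called with all libraries and 3363 without vasculature 3, of which 2754 were among the 3979. None of the 3979 changed sign in any alternative that tested it. The libraries of the 2 tissues did not overlap for any of the 3979, so leaving out 1 library could not turn a sign. The gene groups below are given with the number of their calls that stayed in this last fit, 8 libraries without vasculature 3. That fit assumes that the epidermis libraries vary like those of the cortex and the vasculature. It also reuses both cortex libraries, vasculature 1 and vasculature 2. A call that stayed is therefore not independent support, since without the epidermis libraries 0 transcripts were called by limma with vasculature 3 left out.

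**Figure D1:**
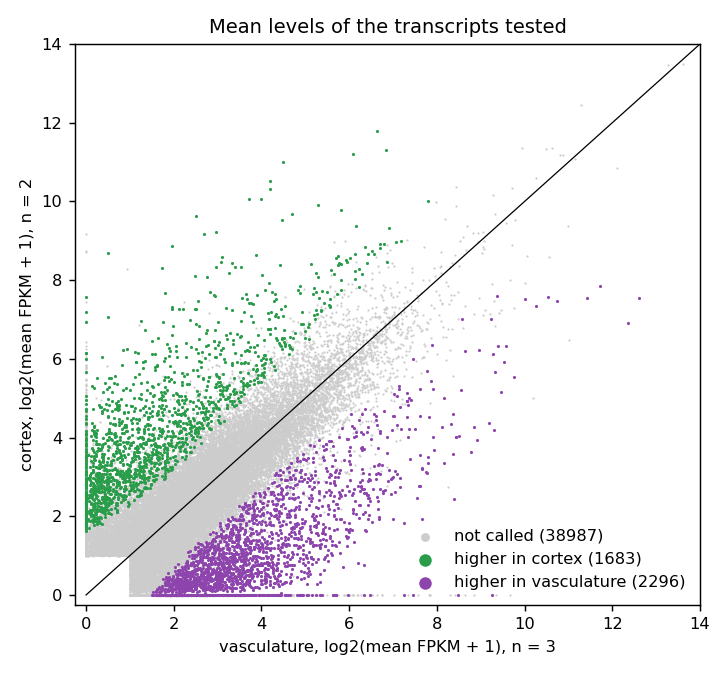
Mean level of each of the 42966 transcripts tested in the vasculature (x axis, 3 libraries) and the cortex (y axis, 2 libraries), both as log2 of the mean FPKM + 1, with the line of equal levels. The 1683 transcripts called higher in the cortex lie above the line and the 2296 called higher in the vasculature below it, many of them along the bottom edge, where the cortex is near 0.

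Among the largest cortex differences were those of small secreted proteins of the extensin-like and lipid-transfer family, which share a cysteine-rich fold and act at the wall and the cell surface. A lipid-transfer superfamily transcript (BnaC02g38640D) stood at 1412 and 2659 FPKM in cortex 1 and 2 and at 34.9, 2.73 and 26.6 FPKM in vasculature 1, 2 and 3. Even the lower cortex library exceeded the highest vasculature library many times over, and the ratio of the means was 95.1 (log2 difference 6.97 ± 0.98 SE, adjusted p = 0.00893). The epidermis libraries, at 291, 197 and 708 FPKM, lay between the tissues.

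A further 4 transcripts of the family match *ELP*, an Arabidopsis gene for an extensin-like protein. The one with the largest difference (BnaA08g24920D) was at 224 and 712 FPKM in the cortex and at 4.75, 0.928 and 2.93 FPKM in the vasculature. Its cortex libraries differed by more than its vasculature libraries did in FPKM, and its log2 difference was 6.83 ± 0.65 (adjusted p = 0.00338). The others (BnaC08g15350D, BnaC05g49400D and BnaA06g38220D) had cortex levels of 332 to 947 FPKM against 6.01 to 79.5 FPKM in the vasculature, and log2 differences of 5.11, 4.87 and 4.04. Near-identical homologs can share reads, so the split between these transcripts is uncertain.

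Across the enriched lists of the study, 16 transcripts belong to this family. Of these, 14 were higher in the cortex and 2 in the vasculature, with a median difference of 4.14, and all 16 stayed called with 8 libraries without vasculature 3. Vasculature 2 was the lowest vasculature library for 15 of the 16. The study picked these lists on the same libraries, so a count over them is not independent evidence of its direction, which holds for each enriched list below. The exceptions were lipid-transfer superfamily transcripts, of which BnaAnng19290D was listed at 0 and 6.33 FPKM in the cortex and at 72.1, 55.8 and 81.9 FPKM in the vasculature (log2 difference -4.69, adjusted p = 0.0159). Members of the family lay at both ends of the comparison, a split set by drawing them from the cortex-enriched and vasculature-enriched lists.

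Hormone and peptide genes were also among the cortex-higher transcripts. *GASA6* (BnaA01g31950D), which encodes a small gibberellin-responsive peptide, was at 124 and 283 FPKM in the cortex and at 2.23, 2.62 and 2.62 FPKM in the vasculature. The 3 vasculature libraries were nearly equal, and the ratio of means was 81.7 (log2 difference 5.76 ± 0.42, adjusted p = 0.00312). *BES1* (BnaC08g36760D), a transcription factor of brassinosteroid signalling, was at 40.9 and 78.8 FPKM against 4.72, 6.72 and 4.07 FPKM (log2 difference 3.25 ± 0.40, adjusted p = 0.00617). Both *PSK4* transcripts, for the precursor of the growth peptide phytosulfokine, were higher in the cortex. BnaC01g26290D was at 147 and 123 FPKM against 10.5 to 16.7 FPKM, and BnaA01g20950D was at 94.0 and 80.2 FPKM against 4.86 to 9.76 FPKM.

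*GA3OX1*, the enzyme of the last step of active gibberellin synthesis, had homologs that pointed opposite ways. BnaA06g10250D was at 55.7 and 64.7 FPKM in the cortex and at 6.37, 2.80 and 5.71 FPKM in the vasculature, a log2 difference of 3.41 ± 0.39 (adjusted p = 0.00495). BnaC05g11920D was at 4.86 and 14.2 FPKM in the cortex and at 36.5, 90.9 and 37.6 FPKM in the vasculature. Its libraries did not overlap either, but the difference of -2.44 ± 0.59 did not pass the test (adjusted p = 0.0509). *BSK2* (BnaA01g08850D), a brassinosteroid signalling kinase, was higher in the vasculature, so that of 7 transcripts in this list 5 were called higher in the cortex and 1 in the vasculature. Of these calls 5 stayed with 8 libraries without vasculature 3, and that of *BSK2* was lost with the epidermis in the fit (adjusted p = 0.0598).

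The 6 water channels came from the enriched lists of the cortex and the vasculature, so their split between the tissues was set by that choice. On each side lay 3, and on the cortex side *PIP2A* (BnaA09g33720D) was not called. The plasma membrane aquaporin *PIP2B* (BnaC04g08090D) was at 67.0 and 111 FPKM in the cortex against 11.3, 6.63 and 6.93 FPKM in the vasculature (log2 difference 3.27). The vacuolar aquaporin *TIP1;1* (BnaAnng24130D) was at 52.3 and 35.2 FPKM against 6.55, 4.69 and 4.88 FPKM (log2 difference 2.80). The adjusted p was 0.00589 for both. The homologs of *PIP1;5*, a further plasma membrane aquaporin, went the other way. BnaC07g38190D was listed at 0 and 2.80 FPKM in the cortex and at 37.3, 11.7 and 21.7 FPKM in the vasculature (adjusted p = 0.0264), and BnaA03g45950D was alike, at 0.394 and 4.20 FPKM against 36.8, 13.2 and 25.9 FPKM (adjusted p = 0.0321). The boric acid channel *NIP6;1* (BnaC06g40240D) was listed at 0 in cortex 1 and at 26.1 FPKM in cortex 2, against 73.4 to 117 FPKM in the vasculature, and did not pass the test (adjusted p = 0.101). All 4 called water channels stayed called with 8 libraries without vasculature 3.

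Hydrolases of walls and proteins also came from the enriched lists of the cortex and the vasculature, so their split between the tissues was set by that choice. Of 17 listed transcripts, 10 were called higher in the cortex and 4 in the vasculature, against 3.92% and 5.34% of all transcripts tested. Of these calls 12 stayed with 8 libraries without vasculature 3. The 6 aspartyl protease transcripts, all from the cortex-enriched list, were called higher in the cortex, with log2 differences of up to 4.02. In the A01 and A02 stretch described below, 6 of 7 aspartyl proteases had a positive difference, with a median of 1.11. Only 1 of those 7 was called, higher in the cortex, and 0 stayed called with 8 libraries without vasculature 3. The 3 homologs of the beta-xylosidase gene *XYL4* were each several times higher in cortex 1 than in cortex 2. BnaC09g06400D was at 136 and 21.6 FPKM in cortex 1 and 2 against 0.995 to 4.64 FPKM in the vasculature (adjusted p = 0.0341), and for BnaA09g06900D, at 97.2 and 11.2 FPKM against 1.15 to 9.85 FPKM, the difference did not pass (adjusted p = 0.192). Wall enzymes on the vasculature side were an expansin, *EXPA15* (BnaA02g26670D, 64.7 to 112 FPKM against 6.55 and 6.66 FPKM in the cortex), an arabinofuranosidase, *ARAF1*, and the beta-xylosidases *BXL1* and *BXL2*.

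Further named cortex-higher transcripts were a leucine-rich repeat family member (BnaC08g02750D) at 284 and 250 FPKM against 2.14 to 10.3 FPKM, and an ABC-2 type transporter (BnaC02g14920D) at 75.7 and 75.6 FPKM against 0.386 to 1.48 FPKM. Both had cortex libraries that agreed closely. Another lipid-transfer superfamily transcript (BnaC01g22500D) was at 350 and 197 FPKM against 1.16 to 7.67 FPKM. The log2 differences were 5.49, 5.36 and 5.77.

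**Figure D2:**
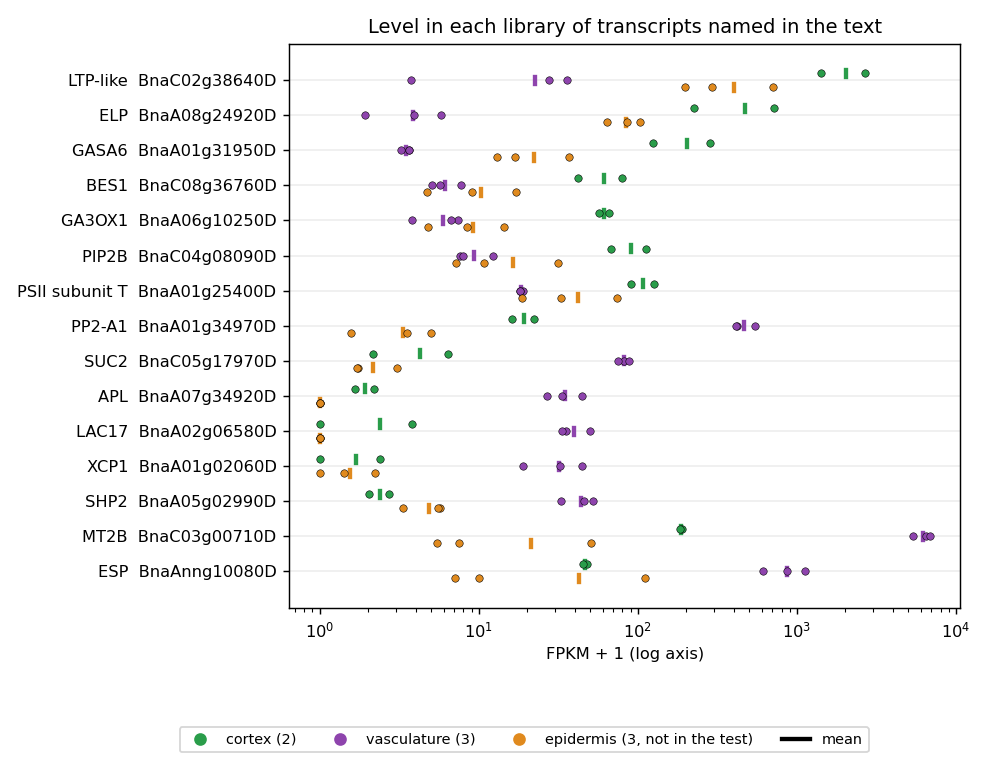
FPKM + 1 on a log axis for 15 transcripts of the text in each of the 2 cortex, 3 vasculature and 3 epidermis libraries, with vertical bars at the group means. In the upper 7 rows both cortex points lie to the right of every vasculature point, in the lower 8 rows to the left. In the upper rows the epidermis means lie between the tissues, and in the lower rows they lie far to the left of the vasculature.

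The 27 phloem transcripts all came from the vasculature-enriched list, so a higher level in the vasculature was set by that choice, and their sizes are described here. For *PP2-A1* (BnaA01g34970D), a sieve element lectin, cortex 1 and 2 held 15.1 and 21.2 FPKM, and vasculature 1, 2 and 3 held 419, 546 and 415 FPKM (log2 difference -4.60 ± 0.36, adjusted p = 0.00312). The sucrose symporter *SUC2* (BnaC05g17970D), which loads the phloem, was at 1.16 and 5.42 FPKM against 80.8, 86.7 and 74.0 FPKM (-4.45 ± 0.50, adjusted p = 0.00456). The sucrose exporter *SWEET13* (BnaC09g27000D) was at 0.776 and 3.35 FPKM against 88.4, 51.9 and 105 FPKM (-4.84 ± 0.51, adjusted p = 0.00412). In each of these the groups were far apart.

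*APL* (BnaA07g34920D), the factor of phloem identity, was at 0.675 and 1.20 FPKM in the cortex against 25.9, 43.6 and 32.4 FPKM. *SEOB* (BnaC03g30640D), a filament protein of sieve elements, was listed at 0 in both cortex libraries and at 13.8, 12.7 and 13.6 FPKM in the vasculature. All 27 were called, 26 of them also with 8 libraries without vasculature 3, the median difference was -3.41, and 7 were listed at 0 in both cortex libraries. Their summed level was 63.3 and 92.7 FPKM in the cortex and 1396, 1845 and 1474 FPKM in the vasculature. Vasculature 2 was the highest of the 3 vasculature libraries for 25 of the 27, against 15949 of all 42966 transcripts tested.

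Xylem transcripts followed the same direction at lower levels. The lignin laccase *LAC17* (BnaA02g06580D) was listed at 0 and 2.80 FPKM in the cortex and at 34.6, 48.8 and 32.5 FPKM in the vasculature (-4.32 ± 0.58, adjusted p = 0.00767). The thermospermine synthase *ACL5* (BnaC02g08800D) was at 1.04 and 3.36 FPKM against 46.9, 53.0 and 54.4 FPKM. The factors above them in the secondary wall network were low: *MYB46* (BnaA10g30020D) was listed at 0 in both cortex libraries and at 3.88, 4.93 and 3.04 FPKM in the vasculature, and passed the test (adjusted p = 0.00979). Of 35 transcripts, all from the vasculature-enriched list, 31 were called higher in the vasculature, and 21 were listed at 0 in both cortex libraries. All 31 stayed called with 8 libraries without vasculature 3. Their sums were 9.98 and 41.6 FPKM in the cortex and 433, 459 and 430 FPKM in the vasculature. Among the transcripts that did not pass was *NST1* (BnaAnng41940D), a master factor of fibre walls, at 1.79, 1.05 and 6.01 FPKM in the vasculature (adjusted p = 0.113).

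Regulators of vascular patterning and fruit identity, all from the vasculature-enriched list, were called higher in the vasculature for 16 of 18 transcripts. Of these calls 15 stayed with 8 libraries without vasculature 3. The MADS-box gene *SHP2* (BnaC04g52620D), first known from valve margins and ovules in Arabidopsis, was at 2.30 and 3.90 FPKM in the cortex and at 96.9, 58.3 and 105 FPKM in the vasculature. Its homolog BnaA05g02990D was at 1.03 and 1.74 FPKM against 44.6, 31.9 and 51.3 FPKM. The receptor kinase gene *CLV1* (BnaA07g32120D) was at 0.932 and 1.83 FPKM against 40.4, 47.2 and 40.9 FPKM. The log2 differences of these were -4.40, -4.18 and -4.23. Class III HD-ZIP factors, which set vascular polarity, were also called, with *ICU4* (BnaC06g05240D and BnaA06g01940D) and *PHB* (BnaA04g20300D) between 9.34 and 14.2 FPKM in the vasculature and under 1.3 FPKM in the cortex.

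The highest vasculature-called levels belonged to metallothioneins, small cysteine-rich proteins that bind metals. *MT2B* (BnaC03g00710D) was at 189 and 183 FPKM in the cortex and at 5327, 6510 and 6844 FPKM in the vasculature (-5.05 ± 0.41, adjusted p = 0.00312). *MT2A* (BnaA10g27170D) was at 95.2 and 143 FPKM against 6664, 3380 and 5804 FPKM (-5.43 ± 0.49, adjusted p = 0.00321). Both transcripts were well above 0 in the cortex as well. Of 11 metal-handling transcripts in the enriched lists 7 were called, 3 of them also with 8 libraries without vasculature 3, and the whole list summed to 600 and 1177 FPKM in the cortex and to 18387, 15008 and 19431 FPKM in the vasculature. The ferritin transcript *FER1* (BnaC03g00160D) did not pass (adjusted p = 0.102), with 25.8 and 2.15 FPKM in the cortex and 71.5, 279 and 48.6 FPKM in the vasculature.

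In the myrosinase system an enzyme splits glucosinolates when cells are broken. Of its 13 transcripts, all from the vasculature-enriched list, 11 were called higher in the vasculature, but only 4 of these stayed called with 8 libraries without vasculature 3. *ESP* (BnaAnng10080D), the specifier protein that turns the products into epithionitriles or nitriles, was at 47.1 and 44.4 FPKM in the cortex and at 870, 1124 and 609 FPKM in the vasculature (-4.17 ± 0.41, adjusted p = 0.0036, and 0.086 in that fit). The myrosinase *TGG1* matched 9 transcripts, 8 of which were called, with differences of -3.86 to -2.43. Vasculature 2 was the highest vasculature library for 11 of the 13. For example, BnaC02g40420D was at 2.23 and 3.02 FPKM in the cortex and at 27.0, 122 and 25.7 FPKM in the vasculature. Homologs this close can share reads.

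Transcripts of DNA replication, histones and mitosis were called higher in the vasculature for 34 of 40, all from the vasculature-enriched list. Of the 34, 17 stayed called with 8 libraries without vasculature 3. A histone H3 transcript (BnaA10g21870D) was at 2.42 and 8.62 FPKM in the cortex and at 105, 42.6 and 160 FPKM in the vasculature (-3.98 ± 0.68, adjusted p = 0.0165, and 0.0674 in that fit). The sliding clamp *PCNA1* (BnaC08g45280D) was at 3.14 and 4.0 FPKM against 37.4, 15.2 and 30.5 FPKM (-2.57 ± 0.44, adjusted p = 0.0168, and 0.0595 in that fit). Here vasculature 2 was the lowest vasculature library, in 32 of 40 transcripts against 15862 of all 42966, the reverse of the phloem and myrosinase lists. The SUMO modifiers and their conjugating enzyme *SCE1* showed the same order, with vasculature 2 the lowest in 6 of 6 and 5 of 6 called higher in the vasculature, of which 1 stayed called in that fit. The 3 vasculature libraries therefore differed among themselves by gene group, and what sets vasculature 2 apart was not tested.

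Of the remaining named vasculature transcripts, a transcript described as C-terminal cysteine residue is changed to a serine 1 (BnaC08g42020D), a thioredoxin-like protein, had the largest difference. It was listed at 0 in both cortex libraries and at 258, 1362 and 217 FPKM in the vasculature. Response regulator 22 (BnaC05g47370D), of the phosphorelay signalling family, was at 4.28 and 1.31 FPKM against 152, 136 and 90.2 FPKM (-5.15 ± 0.47, adjusted p = 0.00321). A RALF peptide transcript (BnaC08g08290D) was at 3.29 and 19.5 FPKM against 487, 215 and 618 FPKM. Secreted and wall proteins were again present on this side, with low-molecular-weight cysteine-rich 69 (BnaC07g21510D, 351 to 863 FPKM against 25.6 and 8.68 FPKM) and extensin 3 (BnaA07g37340D, 134 to 507 FPKM against 2.96 and 19.0 FPKM). The cyclophilin rotamase CYP 1 (BnaA06g37360D, 244 to 448 FPKM against 3.39 and 26.9 FPKM), a zinc finger transcript (BnaC07g29250D) and an HSP20-like transcript (BnaC09g36900D) were also called, the last pair listed at 0 in both cortex libraries. Over the whole enriched lists, 48 of 53 cortex transcripts and 594 of 684 vasculature transcripts were called in their own direction, of which 41 and 514 stayed called with 8 libraries without vasculature 3.

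A stretch of chromosomes A01 and A02 gave a view that was not chosen by tissue, because the study describes every detected transcript in it. It holds 1999 transcripts, 1843 on A01 and 156 on A02, of which 1860 were tested. In it 84 (4.52%) were called higher in the cortex and 87 (4.68%) higher in the vasculature, together 9.19%, with a median difference of -0.05, and 111 of these calls stayed with 8 libraries without vasculature 3. Among the largest cortex differences was again a lipid-transfer superfamily transcript (BnaA01g18740D), at 51.2 and 22.2 FPKM in the cortex and 0.384, 0 and 0.773 FPKM in the vasculature (4.69 ± 0.45, adjusted p = 0.0035). A pollen Ole e 1 and extensin family transcript (BnaA02g01430D) was at 90.2 and 76.6 FPKM against 2.83, 3.31 and 5.32 FPKM (4.16 ± 0.35, adjusted p = 0.00312). A P-loop nucleoside triphosphate hydrolase (BnaA01g15430D) was at 126 and 268 FPKM against 2.47 to 9.82 FPKM, a difference of 4.77.

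Several of the leading cortex transcripts in this stretch were higher still in the epidermis. The ABC transporter P-glycoprotein 2 (BnaA01g15130D) was at 12.6 and 21.5 FPKM in the cortex, at 0.0798 to 0.183 FPKM in the vasculature and at 67.8, 102 and 73.8 FPKM in the epidermis. Pectin methylesterase 44 (BnaA01g03620D) was at 17.7 and 12.9 FPKM, at 0, 0.448 and 0 FPKM, and at 52.8, 65.2 and 59.4 FPKM in the same order of tissues. UDP-D-glucuronate 4-epimerase 6 (BnaA01g23480D), which makes the sugar nucleotide used for pectin, was at 43.2 and 50.1 FPKM, at 1.54 to 5.09 FPKM and at 73.8 to 94.0 FPKM. Others were lower in the epidermis than in the cortex: haemoglobin 2 (BnaA01g31630D) was at 36.2 and 31.7 FPKM in the cortex and 10.7 to 21.2 FPKM in the epidermis, a glycosyl hydrolase (BnaA02g01340D) at 29.2 and 19.9 FPKM and a mean of 11.4 FPKM, and a leucine-rich repeat transcript (BnaA01g30460D) at 27.8 and 41.7 FPKM and 16.9 to 23.8 FPKM.

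On the vasculature side of the stretch, *PP2-A1* (above) was followed by a homeodomain-like transcript (BnaA01g30340D) at 2.22 and 9.27 FPKM in the cortex and 118, 189 and 118 FPKM in the vasculature (-4.59 ± 0.55, adjusted p = 0.00584). Ascorbate peroxidase 5 (BnaA01g01600D), which removes hydrogen peroxide, was at 0.961 and 1.47 FPKM against 46.5, 48.9 and 39.4 FPKM (-4.38 ± 0.31, adjusted p = 0.00312). Xylem cysteine peptidase 1 (BnaA01g02060D), which clears the content of dying vessels, was at 0 and 1.38 FPKM against 31.3, 17.9 and 43.8 FPKM (-4.29 ± 0.53, adjusted p = 0.00614). A phosphoglucan, water dikinase of starch breakdown (BnaA01g35130D), a further P-loop hydrolase (BnaA01g09850D) and an NB-ARC resistance protein (BnaA01g09840D) had vasculature levels of 30.6 to 85.2 FPKM and cortex levels of 0.628 to 2.36 FPKM. An HMG box chromatin protein (BnaA01g13430D) was listed at 0 in both cortex libraries and at 16.0, 15.6 and 12.5 FPKM in the vasculature, while a receptor-like kinase (BnaA01g35050D) and a second homeodomain-like transcript (BnaA01g37390D) were under 0.5 FPKM in the cortex and at 9.51 to 14.8 FPKM in the vasculature.

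Gene groups in the stretch, read against the 4.52% and 4.68% above, moved in part of their members. Of 15 photosystem and light-harvesting transcripts, 3 were called, each higher in the cortex, while 14 of 15 had a positive difference, with a median of 1.11. Of the 3 calls 1, that of photosystem I subunit E-2, stayed with 8 libraries without vasculature 3. Photosystem II subunit T (BnaA01g25400D) was at 89.1 and 125 FPKM in the cortex and at 18, 17.2 and 17 FPKM in the vasculature (2.53 ± 0.33, adjusted p = 0.00681, and 0.0601 with 8 libraries without vasculature 3), and photosystem I subunit E-2 (BnaA01g08150D) was at 64.3 and 74.0 FPKM against 20.8, 30.4 and 20.1 FPKM (1.52 ± 0.34, adjusted p = 0.042). A chlorophyll a/b binding transcript (BnaA01g24440D) was at 20.7 and 90.9 FPKM against 2.35, 1.38 and 4.54 FPKM (adjusted p = 0.021, and 0.054 with the epidermis in the fit). The chlorophyll synthesis enzyme protochlorophyllide oxidoreductase B (BnaA01g16440D) had overlapping libraries, at 41.6 and 46 FPKM against 57.8, 40.0 and 44.6 FPKM. Cortex 2 was above cortex 1 for 13 of the 15.

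The secondary wall and xylem list lay at the other end, with 7 of 15 tested transcripts called higher in the vasculature, 0 in the cortex and a median of -1.93, and all 7 stayed called with 8 libraries without vasculature 3. Besides the cysteine peptidase, the called transcripts included a COBRA-like protein (BnaA02g02700D, listed at 0.636 and 0 FPKM in the cortex and 5.31 to 8.71 FPKM in the vasculature), *NAC075* (BnaA01g07600D), *MYB85* (BnaA01g12370D) and a second *MYB46* homolog (BnaA02g01290D). The vessel-associated protease metacaspase 9 (BnaA01g07720D) was low in both tissues, at 0 and 0.629 FPKM against 2.2, 0.646 and 1.11 FPKM, and did not pass (adjusted p = 0.345).

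Cell division and DNA replication transcripts of the stretch were called higher in the vasculature for 6 of 30 and higher in the cortex for 0, with a median of -0.54, and 3 of the 6 stayed called with 8 libraries without vasculature 3. The 6 were the HMG box protein, histone H2A 13 (BnaA01g25600D), a histone H3 (BnaA02g00480D), topoisomerase II (BnaA01g07960D), a D3 cyclin (BnaA01g21120D) and DP-E2F-like 2 (BnaA02g02400D). The mitotic cyclin B1 (BnaA01g00430D) was listed at 0 in the cortex and at 0.679, 0.796 and 1.82 FPKM in the vasculature, and was not called (adjusted p = 0.209). The cyclin-dependent kinase cell division control 2 (BnaA01g20470D), at 3.72 and 4.91 FPKM against 2.98, 4.65 and 2.67 FPKM, had overlapping libraries.

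Wall genes of primary growth went both ways. Of 23 tested, 5 were called higher in the cortex and 2 in the vasculature, with a median of 0.28, and 5 of the 7 calls stayed with 8 libraries without vasculature 3. Primary wall cellulose synthases were on the cortex side, *CESA1* (BnaA01g04600D) at 43.7 and 33.1 FPKM against 11.2, 11.9 and 9.60 FPKM (1.72, adjusted p = 0.0213) and *CESA2* (BnaA01g05450D) at 32.3 and 28.8 FPKM against 6.71, 1.88 and 3.00 FPKM (2.82, adjusted p = 0.0143). The xyloglucan-cutting enzyme XTH24 (BnaA01g06750D) was at 30.1 and 8.07 FPKM against 0.980 to 2.62 FPKM, and SKU5 similar 4 (BnaA01g11870D) was at 49.4 and 15.4 FPKM against 1.78 to 3.48 FPKM. Arabinogalactan protein 18 (BnaA01g00450D) went the other way, at 0.643 and 1.96 FPKM in the cortex against 12.0, 24.1 and 19.3 FPKM in the vasculature (-3.09, adjusted p = 0.00835). Expansin-like B1 (BnaA01g18000D) was listed at 0 in cortex 1, at 12.9 FPKM in cortex 2 and at 80.0, 23.3 and 87.1 FPKM in the vasculature, which did not pass (adjusted p = 0.086). Pectin-modifying genes had 3 of 17 called higher in the cortex and 1, a rhamnogalacturonate lyase (BnaA01g35120D), in the vasculature, and 2 of the 4 calls stayed in that fit.

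Cuticle and lipid genes, which serve mainly the epidermis, were called higher in the cortex for 5 of 13 tested transcripts and higher in the vasculature for 0, with a median of 1.5, and all 5 stayed called with 8 libraries without vasculature 3. A fatty acyl reductase of the jojoba type (BnaA01g03200D) was at 10.6 and 14.5 FPKM in the cortex, at 0.169, 0 and 0.681 FPKM in the vasculature and at 83.3, 54.6 and 73.4 FPKM in the epidermis. The epidermal factors *MYB16* (BnaA02g02580D) and *MYB106* (BnaA01g33290D) were low in the cortex, at 1.31 and 2.00 FPKM and at 1.78 and 2.17 FPKM, and lower in the vasculature, at 0 to 0.438 FPKM and 0 to 0.159 FPKM. Neither passed the test (adjusted p = 0.154 and 0.0611). The list was not epidermal throughout, since the epidermis mean exceeded the cortex mean for 7 of 13. Of the 5 called, it did so for BnaA01g03200D, BnaA01g15910D and BnaA01g35710D. For BnaA01g18740D and BnaA01g21180D the epidermis lay below the cortex, with log2 differences, epidermis minus cortex, of -2.44 and -1.68.

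Among transcription factor families, calls were few and fell on both sides. Of 9 NAC transcripts 2 were called higher in the cortex, among them NAC074 (BnaA01g08340D, 2.41 and 3.19 FPKM against 0 in the 3 vasculature libraries), and 1, *NAC075*, in the vasculature. Of 6 MYB transcripts 1, MYB32 (BnaA01g02240D, 6.44 and 9.22 FPKM against 0.916 to 1.95 FPKM), was called higher in the cortex and 2 in the vasculature. The MYB32 call was lost with 8 libraries without vasculature 3 (adjusted p = 0.0839), and the other NAC, MYB, bHLH, GATA, auxin and transporter calls stayed. Of 9 tested bHLH transcripts 1 was called on each side, and 1 of 8 tested GATA transcripts, GATA3 (BnaA01g02480D, 11 to 15.4 FPKM against 1.39 and 2.59 FPKM), was called higher in the vasculature. Of 7 WRKY transcripts 0 were called by limma in either direction (3 at an unadjusted p under 0.05), and for the auxin list 1 of 13 was, P-glycoprotein 2. Of 44 tested transporters and channels 2 were called higher in the cortex and 3 in the vasculature. The inward potassium channel KAT2 (BnaA01g09060D) was at 12.3 and 24.8 FPKM in the cortex against 1.81, 1.47 and 1.31 FPKM (2.88, adjusted p = 0.00684), while a MATE efflux carrier (BnaA01g24940D, 11.2 to 22.3 FPKM against 1.19 and 0.728 FPKM) and molybdate transporter 1 (BnaA01g06950D, 7.09 to 12.2 FPKM against 0 and 0.675 FPKM) were on the vasculature side.

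Lists of genes that most cells use had medians near that of all transcripts. Cytosolic ribosomal proteins had a median of -0.06 over 33 transcripts with 2 called, both higher in the cortex, heat shock proteins and chaperones had -0.15 over 19 with 0 called by limma (4 at an unadjusted p under 0.05), and actins, tubulins and glycolytic enzymes had -0.05 over 9 with 1 called, a tubulin beta-9 chain (BnaA01g10800D) higher in the vasculature. Neither ribosomal protein call and not the tubulin call stayed with 8 libraries without vasculature 3. *Actin 7* (BnaA02g00190D), for example, was at 74.1 and 67.6 FPKM in the cortex and at 72.6, 36.1 and 59.2 FPKM in the vasculature. Vasculature 2 was the lowest vasculature library for 26 of the 33 ribosomal protein transcripts.

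**Figure D3:**
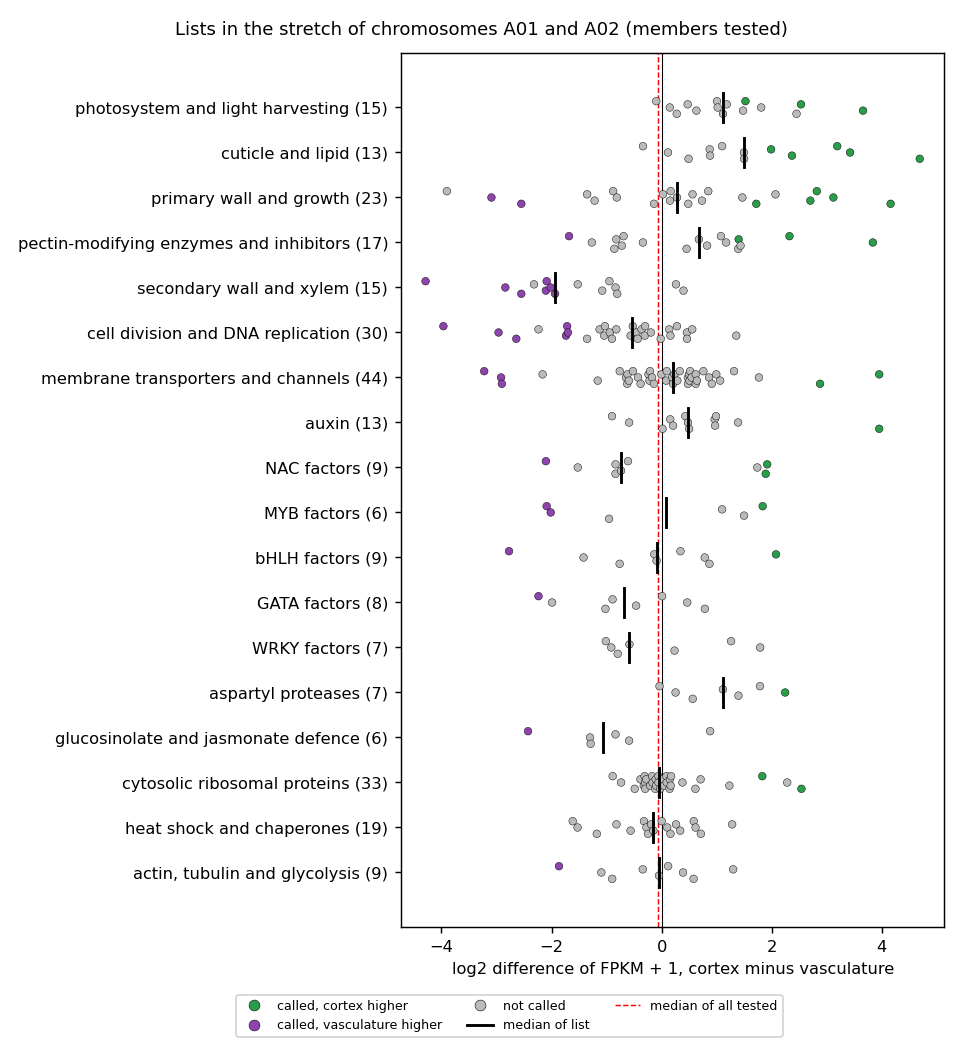
Log2 difference of FPKM + 1, cortex minus vasculature, for each tested transcript of 18 lists in the A01 and A02 stretch, with called transcripts coloured, the median of each list as a black bar and the median of all transcripts tested as a dashed line. Photosystem and cuticle lists lie to the right, with medians of 1.11 and 1.5, the secondary wall list to the left at -1.93, and ribosomal proteins at the dashed line.

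The epidermis libraries, which the comparison did not use, placed the called transcripts differently in the 2 directions. Of the 1683 cortex-higher transcripts, the epidermis mean lay between the tissues for 1046 (62.2%), above the cortex mean for 607 (36.1%) and below the vasculature mean for 30 (1.78%). For 344 every epidermis library exceeded both cortex libraries. Of the 2296 vasculature-higher transcripts, the epidermis mean exceeded the vasculature mean for 12, lay between the tissues for 1030 (44.9%) and fell below the cortex mean for 1254 (54.6%). The median log2 difference, epidermis minus the higher tissue, was -0.46 for the cortex set and -2.60 for the vasculature set. A mean at least 5 times both other tissues was reached by 158 of the cortex set and by 1733 of the vasculature set. The lower side was judged on 3 vasculature libraries in the first set and on 2 cortex libraries in the second, so these counts are not compared. Over all 42966 transcripts tested, the epidermis mean exceeded the cortex mean for 19167 and the vasculature mean for 19161. Called transcripts were selected for a high level in 1 tissue, which alone makes a lower epidermis mean more likely.

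Of the 10 described cortex-higher transcripts with the largest differences in the enriched lists, 4 were from the epidermis list. Glycine-rich protein 5 (BnaC05g31560D) was at 271 and 431 FPKM in the cortex, at 7.38, 1.53 and 13.4 FPKM in the vasculature and at 3444, 1979 and 4660 FPKM in the epidermis (cortex minus vasculature 5.67 ± 0.73, adjusted p = 0.00681). The lipid transfer protein *LTP2* (BnaAnng27610D) was at 158 and 605 FPKM, at 0.684 to 13.4 FPKM and at 1610 to 3253 FPKM in the same order. The pair of glycine-rich protein 23 transcripts (BnaC03g18040D and BnaA04g18980D) was alike, at 72.8 to 233 FPKM, 0 to 6.0 FPKM and 554 to 2175 FPKM. The cortex stood far above the vasculature and far below the epidermis in each.

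The whole epidermis-enriched list of 139 transcripts summed to 1031 and 2062 FPKM in cortex 1 and 2, to 201, 351 and 112 FPKM in vasculature 1, 2 and 3 and to 15754, 8397 and 14582 FPKM in the epidermis. Its 104 tested members reached a mean of 1 FPKM in the cortex or the vasculature, so a member low in the vasculature could enter only through the cortex. Of the 104, 26 were called higher in the cortex and 0 in the vasculature, against 3.92% and 5.34% of all transcripts tested. Their median was 0.60, and 22 of the calls stayed with 8 libraries without vasculature 3. The epidermis mean exceeded the cortex mean in all 104, which was set by the study's choice of this list. Of the 139, 52 were listed at 0 in every vasculature library and 31 in both cortex libraries. How far RNA of epidermis cells in the cortex pieces takes part in the cortex-higher calls was not tested. In the other direction, the 684 vasculature-enriched transcripts summed to 2832 and 5516 FPKM in the cortex against 50470 to 62379 FPKM in the vasculature, and 279 were listed at 0 in both cortex libraries.

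The whole funiculus lay between the tissues for most called transcripts. Its mean over libraries 1 and 3, those the study kept, lay between the cortex and vasculature means for 1439 (85.5%) of the cortex set and 2201 (95.9%) of the vasculature set. On the log2 scale it was nearer to the higher tissue for 1126 (66.9%) and 1645 (71.6%). Over all 42966 transcripts tested, the whole funiculus mean lay between the tissue means for 21894. Called transcripts were selected for a wide gap between the tissues, which alone makes a mean in between more likely.

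**Figure D4:**
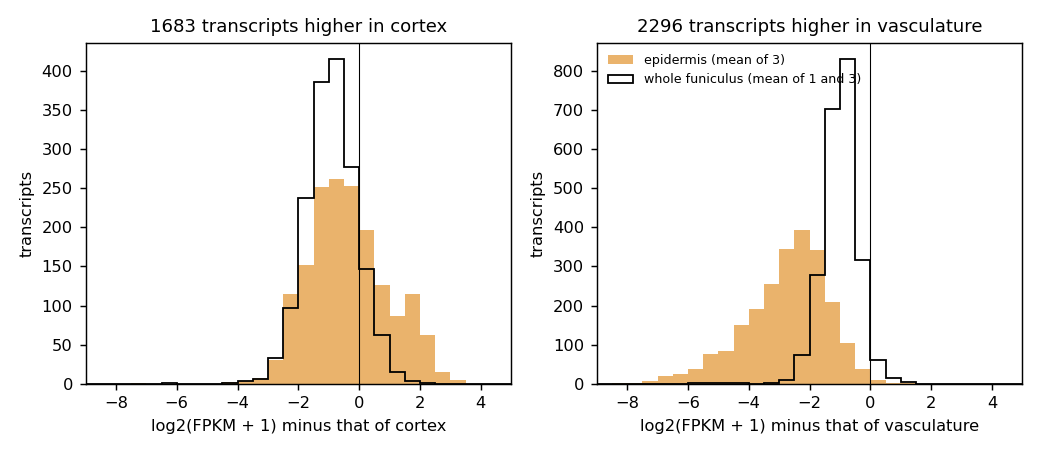
Level of called transcripts in the epidermis (filled, mean of 3 libraries) and the whole funiculus (outline, mean of libraries 1 and 3) relative to the tissue where they were higher, as a difference of log2(FPKM + 1), with the number of transcripts on the y axis. The epidermis spreads to both sides of 0 for the 1683 cortex-higher transcripts and lies almost wholly below 0, with a median of -2.60, for the 2296 vasculature-higher ones.

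The largest differences without a description were of similar size. BnaC06g24880D was at 97.1 and 278 FPKM in the cortex, listed at 0 in all vasculature libraries and at 679, 303 and 801 FPKM in the epidermis, and BnaC03g44790D was at 48.7 and 774 FPKM in the cortex and at 0, 0.810 and 0.464 FPKM in the vasculature. BnaA03g59870D and BnaC06g31080D were listed at 0 in both cortex libraries and at 173 to 517 FPKM and 158 to 203 FPKM in the vasculature. BnaA03g59870D was listed at 107 FPKM in epidermis 2 and at 0 in the other two. All 44 transcripts named by the rule had libraries that did not overlap, as did every called transcript. Leaving out a single library therefore could not turn their sign, and each kept it.

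**Figure D5:**
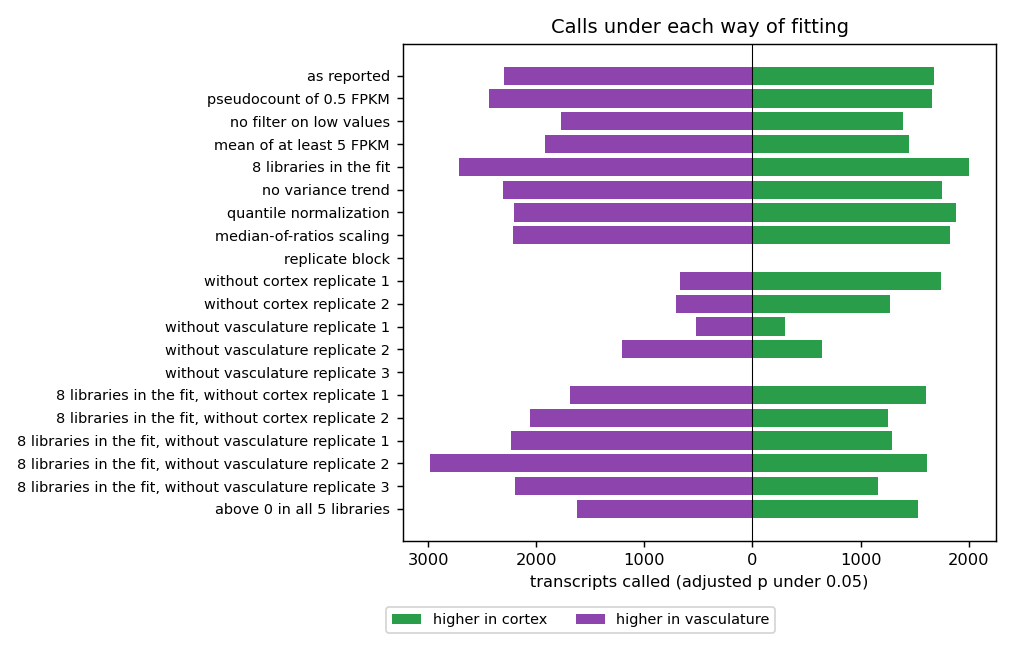
Number of transcripts called higher in the vasculature (bars to the left of 0) and in the cortex (to the right) for the comparison as reported, for each alternative and without each library. Bars are absent for the replicate block and without vasculature 3 in the 5-library fit, while with 8 libraries the counts without any single library stay between 3295 and 4602.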

How the data were processed

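Per the labels, TopHat2 2.0.13 and Cufflinks 2.2.1 were used by the authors to make the deposited FPKM values, which are given for 97902 transcripts. All 11 columns matched a library. Libraries were grouped by tissue from their titles. Cortex and vasculature were compared with limma 3.58.1 in R 4.3.3 on log2(FPKM + 1), with a pseudocount of 1 FPKM and a variance trend, over 42966 transcripts whose mean reached 1 FPKM in either tissue, with Benjamini-Hochberg adjustment. A fold on this scale understates the change of low transcripts. An exact permutation test of 2 against 3 libraries cannot give a one-sided p under 0.1, and sums over lists are given without a test. Replicates were separate pools of plant material.

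The members and lists were chosen with earlier results of these data known. Lists of the A01 and A02 stretch came from description patterns and the others from Arabidopsis matches in the study's enriched lists. Names and descriptions, but no values, came from the study's supplementary tables. Named were the 10 largest called differences with a description in each direction and source, where the higher tissue reached a mean of 10 FPKM, the 2 largest without a description in each direction, and list members as examples. In simulated data of 42966 transcripts, 50 were changed at each fold tried and all others were left unchanged. The test recovered 0 of 50 changed 2-fold, 0 of 50 changed 4-fold, 8 of 50 changed 8-fold and 33 of 50 changed 16-fold, with 1 false call. Far fewer transcripts changed there than the 3979 called in the data. The adjusted threshold is stricter when few change, so these counts do not give the recovery in the data. Alternatives were another pseudocount, filter, scaling and variance model, the epidermis in the fit, a replicate block and leaving out each library. Python 3.11.15 drew the figures and summaries.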

Additional observations from a re-analysis of the deposited data

How the results depend on the processing

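The number of calls, 3979 as reported, stayed within 1.5 times under the other pseudocount, filters, scalings and variance models and with 8 libraries (3154 to 4720). The transcripts called changed more under the filters. Of the 3979, 3040 stayed called with no filter on low values and 2932 with a mean of at least 5 FPKM. With values above 0 in all 5 libraries 2376 of them were tested and 2372 stayed called, 59.6% of the 3979. The other pseudocount, scalings, variance model and 8 libraries kept 92.1% to 97.9%. Quantile or median-of-ratios scaling moved the median of all transcripts from -0.07 to 0.00 and -0.02. Leaving out 1 library gave 0 to 2414 calls in the 5-library fit, 0 to 1744 of them higher in the cortex and 0 to 1207 higher in the vasculature, with 0 without vasculature 3. The share of calls higher in the vasculature, 57.7% as reported, was 27.8% without cortex 1, 35.7% without cortex 2 and 51.4% with values above 0 in all 5 libraries. With 8 libraries, added after seeing the data, it gave 3295 to 4602, 1162 to 1615 higher in the cortex and 1688 to 2987 higher in the vasculature. With 1 cortex library left, that library is assumed to vary like the others. No named transcript reversed, which leaving out 1 library could not bring about, since their libraries did not overlap. With the filter of a value above 0 in all 5 libraries, also added after seeing the data, 3154 were called.

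The replicate block, with the replicate number as a term, left 1 residual degree of freedom, and 0 transcripts were called by limma, 0 in each direction, with 6351 at an unadjusted p under 0.05. Deviations of same-numbered libraries correlated at -0.0722 and -0.0967. With 2 cortex libraries the deviations mirror each other, so this check cannot decide whether the numbers pair the samples.

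The cortex rests on 2 libraries, and cortex 1 had a relative depth of 0.448. Low transcripts, transcripts listed at 0 and close homologs are the least certain.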

Other observations

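Homologs of a tyrosine transaminase family gene, known in Arabidopsis as responsive to jasmonate, fell on opposite sides and were chosen after their values were seen. BnaC01g15060D was at 365 and 172 FPKM in the cortex and at 66.5, 16.1 and 32.0 FPKM in the vasculature (log2 difference 2.90 ± 0.65, adjusted p = 0.0403, and 0.0695 with 8 libraries without vasculature 3). BnaAnng35150D was at 2.03 and 1.03 FPKM against 67.3, 40.8 and 51.6 FPKM (-4.42 ± 0.37, adjusted p = 0.00312), and BnaAnng37050D was at 2.07 and 1.40 FPKM against 40.1, 36.8 and 20.4 FPKM (-3.57 ± 0.39, adjusted p = 0.00442). The latter pair was listed at 0 in all epidermis libraries, while BnaC01g15060D was at 28.3 to 62.9 FPKM there. Besides *GA3OX1*, this was the only Arabidopsis match that the cortex-enriched and vasculature-enriched lists shared.

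The subgenomes held like shares of the calls. Of 20123 tested transcripts on the A subgenome 4.02% were higher in the cortex, and of 22453 on the C subgenome 3.83% were. The shares higher in the vasculature were 5.69% and 5.08%.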
